A study of Mus musculus with 4 samples.

Results

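The genes described here are 9 genes of the marrow niche, taken by symbol from 16673 genes measured in bone marrow cells: Cxcl12 and Kitl, which encode secreted or membrane-bound niche factors, Lepr, Pdgfra and Pdgfrb, receptors that mark perivascular stromal cells, Igfbp4 and Igfbp5, binding proteins for insulin-like growth factors, and Adipoq and Lpl, genes of the adipogenic programme. All 9 had a row in the table, lay on autosomes and passed the filter on low values, a mean of at least 10 normalized counts. RNA was sequenced from lineage-negative (Lin–) bone marrow, the cells left once those bearing surface markers of mature blood lineages are removed, of mice 2 months old. The controls carried the floxed Tet3 alleles without Cre (Tet3F/F, 2 libraries), and the cKO mice carried the same alleles with Cre under Tie2 (Tie2+/cre; Tet3F/F, 2 libraries), with 2 mice per genotype. The TET3 enzyme converts methylated cytosine in DNA to oxidised forms, and Tie2 (Tek), the driver of Cre, is a gene of endothelium and of early blood cells. The study asks how TET3 takes part in gene regulation in these cells.

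Stem cells in the marrow are held beside sinusoids by stromal cells that express the leptin receptor and secrete CXCL12, which retains cells bearing CXCR4, and KIT ligand, which sustains cells bearing KIT. The same stromal cells carry PDGF receptors and express adipogenic genes, and they can give rise to marrow adipocytes and to osteoblasts. These cells are not blood cells, so their transcripts in a Lin– preparation come from whatever stromal cells it still holds, or from blood cells that express the same gene. In such bulk samples, fewer cells of a type and less RNA per cell cannot be told apart.

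Several facts of the libraries touch every value below. The reads counted to genes ranged from 28845037 to 46673855 per library. Tet3 itself was not lower in the libraries labelled cKO (6400 and 5084 normalized counts, against 5056 and 6593 in control), and a count over the whole gene does not check deletion of part of it. The female-specific transcript Xist had 5.54 and 9.57 normalized counts in control and 87442 and 48951 in cKO, and 4 genes of the Y chromosome had none in cKO, so genotype and sex cannot be told apart in any comparison here. Control replicate 2 stood apart from the rest, with 8.16% of its reads in the 13 mitochondrial protein genes, against 0.989% to 1.26% in the other libraries.

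Because TET3 acts on methylated cytosines, which in mammals lie mostly in CG dinucleotides, the upstream sequences of 3 members are shown with each CG in capitals. They are Adipoq, which holds none, Cxcl12, and Igfbp5, whose 2 groups of libraries did not overlap. Each is the 250 bases before the gene's start, read 5′ to 3′ on the gene's strand, from RefSeq (GRCm38.p6). The positions are chr16:23146286-23146535 (plus strand) for Adipoq, chr6:117168285-117168534 (plus strand) for Cxcl12 and chr1:72874866-72875115 (minus strand) for Igfbp5. These are positions in that build, whereas the reads were aligned to mm39.
Adipoq: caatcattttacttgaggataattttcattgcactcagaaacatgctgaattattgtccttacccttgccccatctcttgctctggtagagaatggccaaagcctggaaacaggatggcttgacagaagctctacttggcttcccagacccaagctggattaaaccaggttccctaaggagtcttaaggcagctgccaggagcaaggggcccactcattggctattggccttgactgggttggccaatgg
Cxcl12: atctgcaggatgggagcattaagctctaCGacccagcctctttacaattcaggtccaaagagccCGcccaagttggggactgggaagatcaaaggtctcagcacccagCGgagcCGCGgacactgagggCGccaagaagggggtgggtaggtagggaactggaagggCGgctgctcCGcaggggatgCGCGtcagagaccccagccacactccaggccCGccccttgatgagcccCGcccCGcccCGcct
Igfbp5: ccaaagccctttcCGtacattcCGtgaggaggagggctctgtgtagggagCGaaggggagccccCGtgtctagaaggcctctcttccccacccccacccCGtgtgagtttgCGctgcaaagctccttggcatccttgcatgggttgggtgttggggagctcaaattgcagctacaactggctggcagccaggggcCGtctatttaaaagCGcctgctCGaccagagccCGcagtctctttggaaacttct

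The motif searched was CG, which reads the same on both strands and cannot overlap itself. The Adipoq window held 0 CG, the Igfbp5 window 10 and the Cxcl12 window 14. Over 32851 windows of this length before mouse gene starts, the median was 6, 92.1% held at least 1, and 29.4% held as many as Cxcl12 or more. The table matched 7 of the 9 members, with 8 windows in all, since Lepr had 2. The counts in the windows not printed were 4 for Pdgfra, 10 in each window of Lepr, 22 for Igfbp4 and 23 for Kitl. Lpl and Pdgfrb were not among those matched, and windows on chromosome 18, where Pdgfrb lies, were left out for the members. No methylation was measured in these libraries, so the counts describe the sequence alone.

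The members covered a wide range of levels. Levels between genes are compared as normalized counts per kilobase of exon (all exons of the gene in GENCODE M21 joined), averaged over the 4 libraries. Igfbp4 was far above the rest at 3821 per kilobase, a level above 97.6% of the genes that had a length. Cxcl12 (234) and Pdgfrb (230) followed, then Igfbp5 (122) and Lpl (121), Adipoq (44.0), Lepr (26.6), Kitl (16.0) and Pdgfra (5.14). Igfbp4 in its lowest library (2776) lay above Cxcl12 in its highest (281), and Kitl in its lowest (7.81) above Pdgfra in its highest (6.84). All other neighbours in this order overlapped across the libraries. For scale, the blood cell genes Ptprc (633), Kit (1374) and Mpo (68455) had higher levels per kilobase than every member except Igfbp4, which lay above Ptprc and Kit and below Mpo. As a check of the label, all 10 blood progenitor markers listed were measured in every library. Their summed normalized counts were 153616 to 421862, most of them from the granule enzyme gene Mpo. The lowest sum was that of control replicate 2, where Mpo had 82908 normalized counts, against 247093 to 343617 in the other libraries. Of 8 genes of mature lineages, 6 had a row and summed to 2371 to 4962, highest in control replicate 2, and Ms4a1 and Ly6g had none. The 4 haemoglobin genes, which mark red cells, summed to 12646 and 42891 in control and 15065 and 1234 in cKO. 

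None of the 9 members passed the test between genotypes. The test was limma on log2(normalized count + 1), with Benjamini-Hochberg adjustment over 16598 genes and a threshold of 0.05, and a log2 fold change here is cKO minus control on that scale. Over all genes tested, 0.0723% passed (12 genes). An unadjusted p under 0.05 was found for 2 members (Lpl and Igfbp5) and for 6.1% of all genes. edgeR on the recovered reads called 0 members (0.0723% of all genes) and DESeq2 called 1, Lpl (0.675% of all genes, 0.229% in the lower direction). Of the members, 6 had a fold change above 0 and 3 below, and their median was 0.20. Over all genes 49.2% were below 0 and the median was 0.01. In 4 of the 9 (44.4%) the genotypes did not overlap, 2 with cKO above (Lepr and Igfbp5) and 2 with cKO below (Lpl and Pdgfra). Over all genes 38.7% did not overlap, 19.2% with cKO above and 19.5% with cKO below, so the share among the members is near that background.

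**Figure D1:**
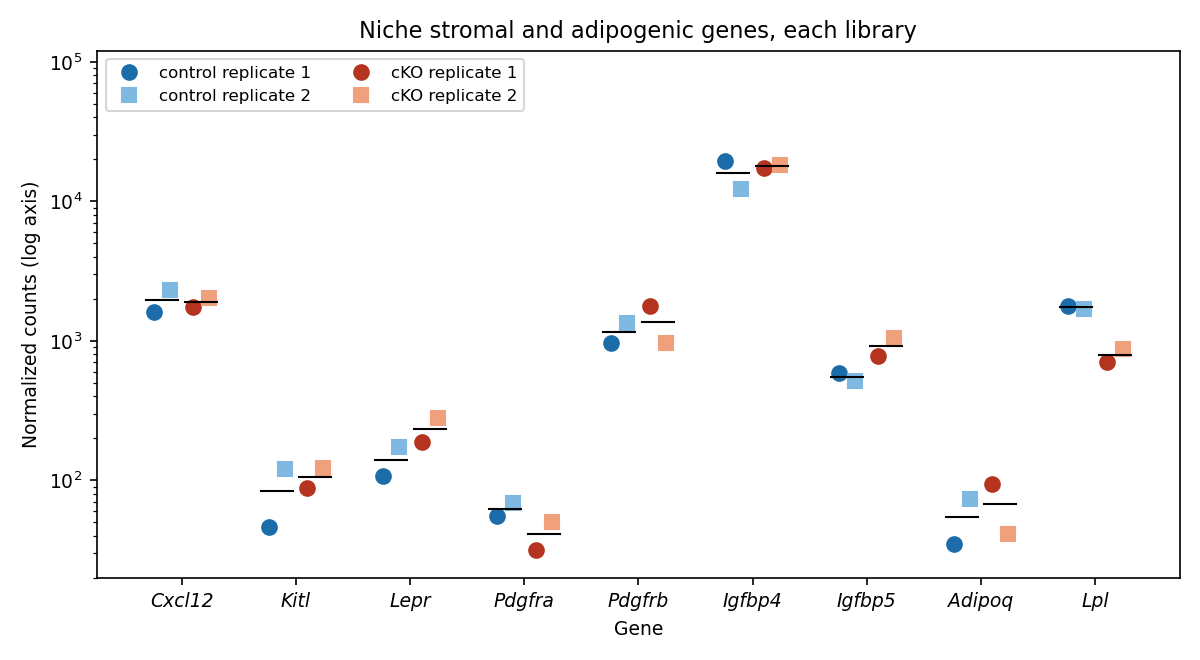
Normalized counts (log axis) of the 9 genes in each library, with blue for control, red for cKO and a black bar for each group's mean of 2 libraries. The pairs are apart for Lepr, Pdgfra, Igfbp5 and Lpl, and Lpl has the widest gap between them (1786 and 1699 against 706 and 871).

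**Figure D2:**
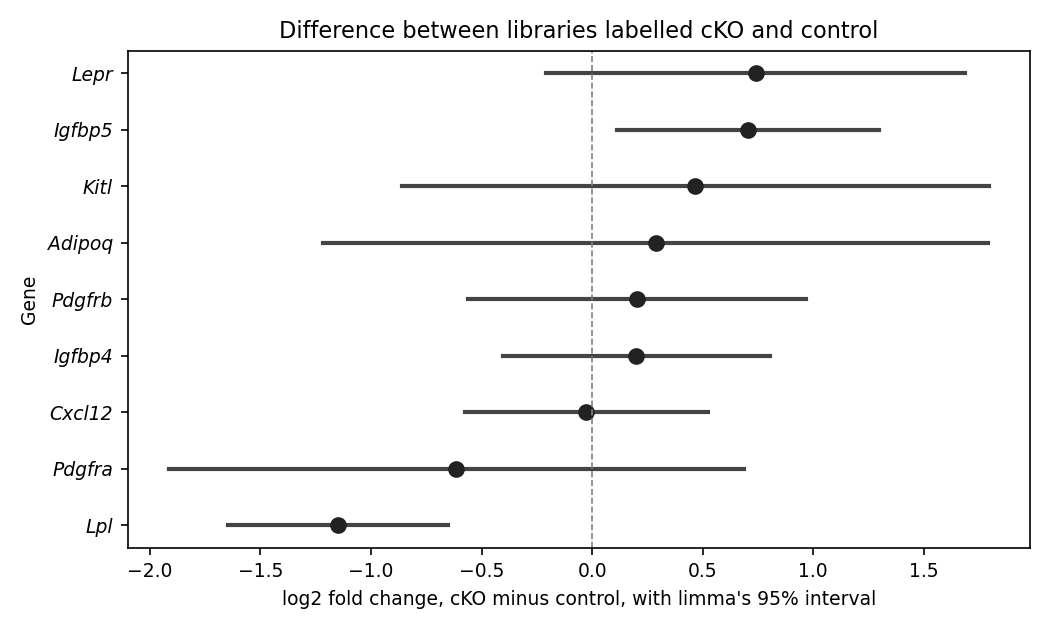
log2 fold change of each gene (cKO minus control, points) with limma's 95% interval (lines). The intervals of Lpl and Igfbp5 leave out 0 before adjustment, and those of Kitl, Adipoq and Pdgfra span more than 2 log2 units.

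Cxcl12, the chemokine that holds stem cells in the niche, did not differ between genotypes beyond the spread of the libraries. It had 1596 and 2299 normalized counts in control and 1752 and 2021 in cKO. Both cKO libraries lay between the 2 controls. The means were 1948 ± 497 and 1887 ± 190 (SD, n = 2 libraries), the log2 fold change was -0.03 (SE 0.23), and the 95% interval ran from -0.57 to 0.52, so a change of up to 1.44-fold higher or to 0.67 of the control level lies within it (limma with Benjamini-Hochberg, adjusted p = 0.98). Cxcr4, its receptor on blood cells, was also without a call, with 10295 and 8230 normalized counts in control and 9741 and 11511 in cKO (log2 fold change 0.20, SE 0.21). Of the 3 genes of this axis with a row, 2 had a fold change above 0 and 1 below, 0 passed limma or edgeR, and DESeq2 called 1. That gene, Dpp4, whose protease product cleaves CXCL12, had 1380 and 1280 normalized counts in control and 3027 and 2175 in cKO. Both cKO libraries lay above both controls, with a log2 fold change of 0.95 (SE 0.22) and an unadjusted p of 0.0033 in limma (adjusted p = 0.040 in DESeq2). Many lymphoid and other cells express Dpp4, and which cells its transcripts came from was not tested.

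Kitl, the ligand of the KIT receptor, had 46.2 and 121 normalized counts in control and 88.7 and 122 in cKO. Control replicate 1 was the low library, and control replicate 2 was level with cKO replicate 2. The 2 controls differed beyond counting error: the exact Poisson 95% interval, which covers counting error only, ran from 34.3 to 60.9 in control replicate 1 and from 103 to 142 in control replicate 2. The log2 fold change was 0.47 (SE 0.57, interval -0.86 to 1.79; limma with Benjamini-Hochberg, adjusted p = 0.85), and it was -0.22 without control replicate 1. Kit, the receptor, had 10915 and 11537 normalized counts in control and 14050 and 12478 in cKO. Both cKO libraries lay above both controls there, by a log2 fold change of 0.24 (SE 0.19) that did not pass.

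Lepr, the leptin receptor and the usual marker of the perivascular stromal cell, was higher in both cKO libraries but did not pass the test. It had 108 and 174 normalized counts in control and 189 and 279 in cKO. The gap between the genotypes, from 174 to 189, was smaller than the gap between the libraries of either genotype. The means were 141 ± 46.6 and 234 ± 63.7 (SD, n = 2), and the log2 fold change was 0.74 (SE 0.41, 95% interval -0.21 to 1.69; limma with Benjamini-Hochberg, adjusted p = 0.76). Leaving out 1 library at a time gave 0.40 to 1.08. Relative to Cxcl12 in the same library, Lepr stood at 0.0677 and 0.0756 in control and at 0.108 and 0.138 in cKO, a ratio of normalized counts that did not overlap. An exact permutation test of that ratio, two-sided, gave p = 0.33, the smallest that 2 against 2 libraries allow.

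The leptin receptor signals through the kinase JAK2 and the factor STAT3, and SOCS3 is a feedback inhibitor that this signal induces. Of the 4 genes of this axis with a row, 2 had a fold change above 0 and 2 below, and 0 passed limma, edgeR or DESeq2 (1 at an unadjusted p under 0.05, Socs3). Jak2 had 3731 and 4083 normalized counts in control and 5098 and 4366 in cKO (log2 fold change 0.27, SE 0.19). Socs3 went the other way, with 292 and 383 in control and 174 and 186 in cKO (-0.89, SE 0.32). Stat3 overlapped between the genotypes, with 7366 and 5459 in control and 5497 and 5658 in cKO (-0.19, SE 0.21). Many cytokine receptors of blood cells use the same genes, and which cells these transcripts came from was not tested.

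The 2 PDGF receptors pointed in opposite directions, and neither passed. Pdgfra, the receptor of early mesenchymal cells, was the scarcest member, with 60 and 86 reads in control and 27 and 44 in cKO. In normalized counts these were 55.4 and 68.6 against 31.5 and 50.5. Both cKO libraries were lower, but the counting intervals of control replicate 1 (42.3 to 71.3) and cKO replicate 2 (36.7 to 67.9) overlapped. The log2 fold change was -0.61 (SE 0.56, interval -1.92 to 0.69; limma with Benjamini-Hochberg, adjusted p = 0.80), and leaving out 1 library at a time gave -0.95 to -0.28. Its exons share 456 bases (4.55% of its exon length) with an antisense gene in GENCODE M21. Whether the counting used strand is not stated in the labels or headers, so reads from the pair cannot be told apart.

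Pdgfrb, the receptor of pericytes, had 963 and 1336 normalized counts in control and 1779 and 957 in cKO. The highest and the lowest library were both cKO, and the spread within cKO (SD 581) was larger than the difference of the means (1149 and 1368). The log2 fold change was 0.20 (SE 0.33, interval -0.56 to 0.97; limma with Benjamini-Hochberg, adjusted p = 0.89). It turned to -0.24 without cKO replicate 1 and to -0.03 without control replicate 1. The ratio of Pdgfra to Pdgfrb in normalized counts was 0.0575, 0.0513 and 0.0528 in both controls and cKO replicate 2, and 0.0177 in cKO replicate 1. In that single library Pdgfra was lowest and Pdgfrb highest, and the ratio overlapped between genotypes (exact permutation test, two-sided, p = 0.67).

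The ligands of these receptors were low. Of 3 ligand genes with a row, Pdgfa, a ligand of the alpha receptor, had 36.0 and 59.0 normalized counts in control and 23.3 and 39.1 in cKO. Pdgfb, a ligand of both, had 79.4 and 148 against 78.2 and 78.1, so that control replicate 2 was the library that stood out. Pdgfd, a ligand of the beta receptor, had 48.9 and 97.3 against 112 and 34.5. Their log2 fold changes were -0.59, -0.47 and -0.15 (SE 0.64, 0.48 and 0.69), and 0 of 3 passed limma, edgeR or DESeq2 or had an unadjusted p under 0.05.

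Igfbp4 and Igfbp5 encode secreted proteins that bind insulin-like growth factors and so limit or shape their access to the receptor IGF1R. Igfbp4 had 19598 and 12257 normalized counts in control and 17439 and 18192 in cKO. Control replicate 2 was the one low library, and the other 3 lay close together. The log2 fold change was 0.20 (SE 0.26, interval -0.40 to 0.81; limma with Benjamini-Hochberg, adjusted p = 0.86), and it was -0.14 without control replicate 2.

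Igfbp5 was higher in both cKO libraries, with the second smallest p among the members. It had 589 and 519 normalized counts in control and 773 and 1052 in cKO. The groups did not overlap. The counting intervals of the nearest pair, control replicate 1 (544 to 637) and cKO replicate 1 (715 to 834), were apart. So were those within cKO, where replicate 2 had 985 to 1123. These intervals cover counting error only and do not measure the spread between libraries. The means were 554 ± 49.4 and 913 ± 198 (SD, n = 2), and the log2 fold change was 0.70 (SE 0.25, 95% interval 0.11 to 1.30), with an unadjusted p of 0.026 in limma. It did not pass over all genes (limma with Benjamini-Hochberg, adjusted p = 0.76), and leaving out 1 library at a time gave 0.48 to 0.93. The ratio of Igfbp4 to Igfbp5 was 33.3 and 23.6 in control and 22.6 and 17.3 in cKO.

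Among the other genes of the insulin-like growth factor axis, 8 were tested, of which 6 lay above 0 in fold change and 2 below (median 0.38). None passed limma, edgeR or DESeq2, and 1 had an unadjusted p under 0.05. That gene, Igfbp6, another binding protein of the family, had 14 and 32 reads in control and 2 and 0 in cKO, too few in cKO for a fold to be given, and DESeq2 gave it no adjusted p. Its low cKO libraries contrast with those of Igfbp5, which were the higher ones. Igf1, the growth factor itself, had 33.2 and 52.6 normalized counts in control and 14.01 and 39.1 in cKO (log2 fold change -0.81, SE 0.74). Igf1r, its receptor, had 4580 and 4175 against 5756 and 4253 (0.18, SE 0.21). Igf1 and Igf1r overlapped between the genotypes.

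Lpl encodes lipoprotein lipase, the enzyme that frees fatty acids from circulating triglycerides, which adipocytes, muscle and macrophages express. It had the largest difference and the smallest p of the 9 members. Lpl had 1786 and 1699 normalized counts in control and 706 and 871 in cKO. The 2 controls agreed closely and both cKO libraries lay far below them. The means were 1742 ± 61.3 and 789 ± 116 (SD, n = 2), 2.21-fold lower in cKO. The log2 fold change was -1.15 (SE 0.21, interval -1.65 to -0.65), with an unadjusted p of 0.00083 that ranked 34 of 16598 genes in limma. It did not pass over all genes in limma or edgeR with Benjamini-Hochberg adjustment (adjusted p = 0.41 in both), whereas DESeq2 called it (log2 fold change -1.14, adjusted p = 0.0017). Of all genes tested, 8.72% had a larger fold change in size.

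The difference in Lpl kept its direction under all 15 alternatives. With both cKO libraries below both controls, leaving out 1 library could not turn the direction, so this adds no support. Leaving out 1 library at a time gave -1.30 to -0.999. Under the other 11 settings, which refit the same libraries, the log2 fold change ran from -1.15 to -1.12. The adjusted p in limma ranged from 0.057 without control replicate 1 to 1 without cKO replicate 1. Without control replicate 2, the library apart from the others, the log2 fold change was -1.19. Relative to Cxcl12 in the same library, Lpl stood at 1.12 and 0.739 in control and at 0.403 and 0.431 in cKO (exact permutation test, two-sided, p = 0.33, the smallest possible).

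**Figure D3:**
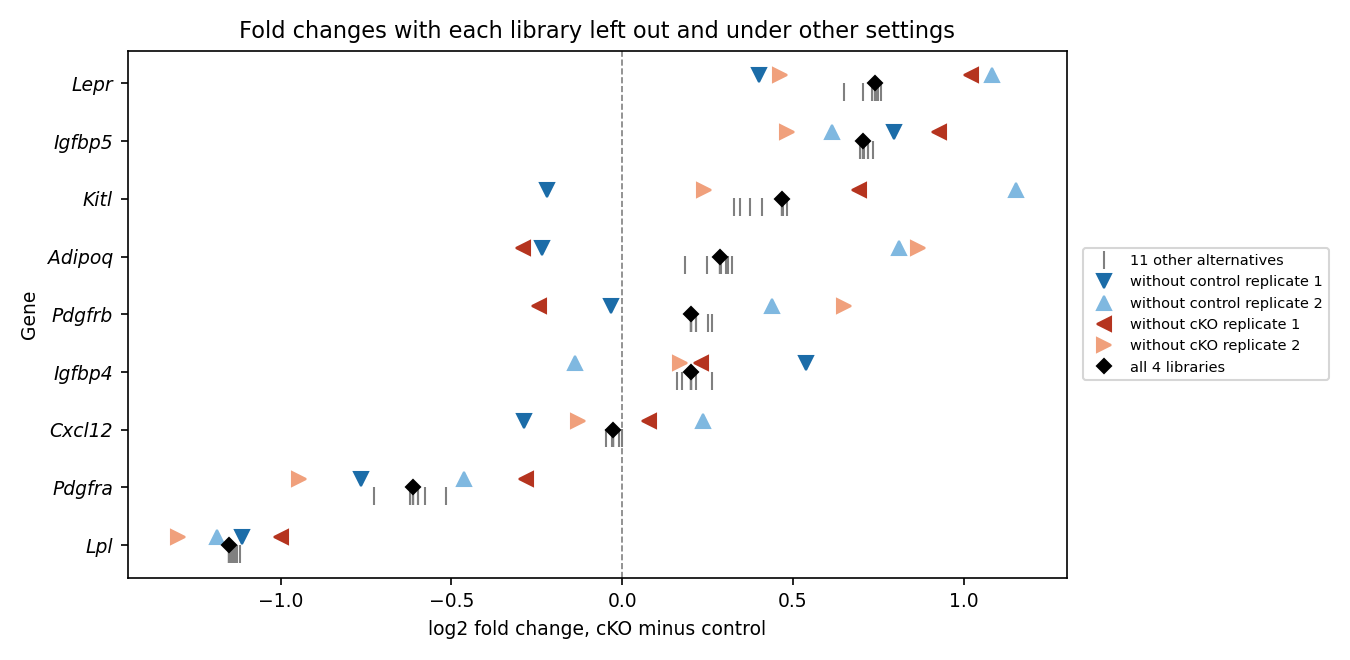
log2 fold change of each gene with all 4 libraries (black diamonds), with each library left out (coloured triangles) and under the 11 other alternatives (grey ticks). Lpl, Pdgfra, Igfbp5 and Lepr stay on one side of 0, and Kitl, Adipoq, Pdgfrb, Igfbp4 and Cxcl12 cross it when single libraries are left out.

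Adipoq encodes adiponectin, a hormone of adipocytes that marrow stromal cells with leptin receptor also express. It had 35.1 and 73.4 normalized counts in control and 93.4 and 41.4 in cKO. The highest library was a cKO one and the lowest a control one, and each genotype held 1 high and 1 low library. The counting intervals within control (24.8 to 48.2 and 59.2 to 90.0) were apart, as were those within cKO (74.1 to 116 and 29.0 to 57.3), so libraries of 1 genotype differed beyond counting error. The log2 fold change was 0.29 (SE 0.64, interval -1.22 to 1.79; limma with Benjamini-Hochberg, adjusted p = 0.92). Its receptors had closer values: Adipor1 had 4893 and 4830 against 4060 and 4441 (-0.20, SE 0.18), and Adipor2 5897 and 5452 against 7147 and 6544 (0.27, SE 0.18). The 2 receptor genes thus lay on opposite sides of control in both cKO libraries, and neither passed.

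No tested gene of those listed as acting with lipoprotein lipase passed. Of 13 listed besides Lpl, Gpihbp1, Apoc2, Apoc3, Apoa5 and Lipc had no row in the table. Of 8 tested besides Lpl, 5 lay above 0 in fold change and 3 below (median 0.07), and 0 passed limma, edgeR or DESeq2 or had an unadjusted p under 0.05. Lmf1, the factor that matures the lipase in the endoplasmic reticulum, had 919 and 1005 normalized counts in control and 788 and 965 in cKO (log2 fold change -0.14, SE 0.22). Angptl4, a secreted inhibitor of the lipase, had 748 and 673 against 693 and 780 (0.05, SE 0.23). Both overlapped between the genotypes. Angptl8, another secreted regulator of the lipase and named after its values were seen, lay lower in both cKO libraries, with 31.4 and 46.3 against 16.3 and 9.19 (-1.56, SE 0.74), on 8 to 58 reads per library.

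Of 11 adipocyte genes tested besides Adipoq, 4 lay above 0 in fold change and 7 below (median -0.13). None passed limma or edgeR, and 1 had an unadjusted p under 0.05, Cebpb, which DESeq2 also called. In 1 of the 11 both cKO libraries were above both controls, and in 4 both were below (19.2% and 19.5% of all genes). Pparg, the master regulator of adipocyte formation, had 44.3 and 57.4 normalized counts in control and 37.4 and 41.4 in cKO (log2 fold change -0.35, SE 0.55). Fabp4 and Cebpa overlapped between the genotypes (log2 fold change 0.13 for each, SE 0.54 and 0.34). Cebpb, a transcription factor of adipocytes and of myeloid cells, had 3079 and 4045 against 1166 and 2009 (-1.20, SE 0.29; limma with Benjamini-Hochberg, adjusted p = 0.67, and DESeq2, adjusted p = 0.0496). The ratio of Lpl to Cebpb, chosen after their values were seen, was 0.580 and 0.420 in control and 0.606 and 0.433 in cKO, and thus overlapped. Plin1 and Cidec, which coat the lipid droplet of mature adipocytes, were not analysed here for want of a row in the table.

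The members can be set beside wider lists of marrow cell types. Of 20 perivascular stromal genes tested, 9 lay above 0 in fold change and 11 below (median -0.10), and 0 passed limma, edgeR or DESeq2 (3 at an unadjusted p under 0.05). Foxc1 and Ebf3, transcription factors of the CXCL12-rich stromal cell, had 33.2 and 75.0, and 73.9 and 160, normalized counts in control, against 51.4 and 43.7, and 78.2 and 73.5, in cKO. Their log2 fold changes were -0.08 (SE 0.61) and -0.52 (SE 0.51). Angpt1, a niche factor that blood progenitors also express, had 2113 and 3773 against 3474 and 3386 (0.28, SE 0.28), and Vcam1, an adhesion molecule of stroma and macrophages, 1423 and 857 against 817 and 1873 (0.16, SE 0.41). These 4 genes overlapped between the genotypes.

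The 3 perivascular stromal genes with an unadjusted p under 0.05 pointed in both directions. Nes, an intermediate filament gene of perivascular cells, lay higher in both cKO libraries, with 11.1 and 20.7 normalized counts in control and 65.4 and 62.0 in cKO (log2 fold change 1.997, SE 0.66). The matrix proteoglycan genes Dcn and Lum, which fibroblastic stroma expresses, lay lower. Dcn had 146 and 142 normalized counts in control and 32.7 and 66.6 in cKO (log2 fold change -1.602, SE 0.51), and Lum 51.7 and 87.7 against 14.01 and 32.2 (-1.62, SE 0.68). None of the 3 passed (limma with Benjamini-Hochberg, adjusted p = 0.76 for each), and they were singled out after their values were seen. Of the 20 genes, 4 had both cKO libraries above both controls (Nes, Prrx1, Col6a1 and Grem1) and 6 had both below, beside 19.2% and 19.5% of all genes.

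Most genes of the osteolineage list, like Lpl, were lower in the cKO libraries. Of its 12 genes tested, 4 lay above 0 in fold change and 8 below (median -1.33), and in 7 both cKO libraries were below both controls (19.5% of all genes). In 2 both were above: Runx2, the regulator of bone formation, with 4892 and 4174 normalized counts in control and 7775 and 5471 in cKO, and Phex. None passed limma or edgeR (7 at an unadjusted p under 0.05, beside 6.1% of all genes), and DESeq2 called 5 lower (0.229% of all genes). With all 4 libraries, the log2 fold change was -2.16 (SE 0.41) for Col1a1 and -2.00 (SE 0.42) for Col1a2. Col1a1 had 10275 and 8090 normalized counts in control and 1258 and 3299 in cKO. Leaving out 1 library at a time gave -2.86 to -1.47 for Col1a1 and -2.72 to -1.27 for Col1a2. The values furthest below 0 came without cKO replicate 2. The summed level was 24984 and 22483 normalized counts in control and 11052 and 12991 in cKO, and no marker was at 0. Runx2 made up most of the sum in cKO replicate 1. The ratio of Lpl to Col1a1 was 0.174 and 0.2100 in control and 0.561 and 0.264 in cKO, so Col1a1 was the further below control of the 2 genes. Col1a1, a chain of type I collagen, stood at 6.44 and 3.52 times the Cxcl12 level in normalized counts in the 2 controls and at 0.718 and 1.63 times in cKO (exact permutation test, two-sided, p = 0.33, the smallest possible). Cxcl12 thus overlapped between the genotypes in libraries whose osteolineage sums were apart. The immediate early genes, which respond to stress and to cell handling, were also lower in the cKO libraries: all 10 had a fold change below 0, 9 with both cKO libraries below both controls (19.5% of all genes), and their sum was 13737 and 17459 against 5383 and 6326. None of these 10 passed limma or edgeR (9 at an unadjusted p under 0.05, beside 6.1% of all genes), and DESeq2 called 8 lower (0.229% of all genes). The ratio of Lpl to Fos was 0.685 and 0.522 in control and 1.67 and 1.15 in cKO, so Fos was the further below control. The part of either list in the Lpl difference was not tested.

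Macrophages express Lpl, so their markers were set beside it. Of 12 macrophage markers 10 had a row, 5 with a fold change above 0 and 5 below, and none was at 0. None passed limma, edgeR or DESeq2, and 1 had an unadjusted p under 0.05. Their summed level was 14374 and 6791 normalized counts in control and 10792 and 12304 in cKO, and the cKO libraries lay between the controls. Most of that sum was Csf1r. C1qa, a complement gene of resident macrophages and the one marker with an unadjusted p under 0.05, had 57.2 and 97.3 in control and 14.01 and 27.6 in cKO (log2 fold change -1.87, SE 0.65). C1qb overlapped between the genotypes, with 51.7 and 29.5 against 53.7 and 48.3 (0.37, SE 0.58). In 2 of the 10 both cKO libraries were above both controls (Mrc1 and Siglec1). In 2 both were below, C1qa and C1qc (19.2% and 19.5% of all genes). The part of macrophages in the Lpl difference was not tested. The ratio of Lpl to Csf1r, the receptor of macrophage growth factor, was 0.178 and 0.399 in control and 0.0885 and 0.0986 in cKO. The ratio to Cd68, a lysosomal protein of macrophages, was 0.777 and 1.91 against 0.795 and 0.643, and there the groups overlapped. Endothelial markers, which stand for the other niche cell that secretes CXCL12 and KIT ligand, had 8 of 12 fold changes above 0 with a median of 0.33, and 0 passed limma, edgeR or DESeq2 (1 at an unadjusted p under 0.05). In 5 of the 12 both cKO libraries were above both controls, and in 1 both were below (19.2% and 19.5% of all genes). Among the 5 was Kdr, the marker with an unadjusted p under 0.05 (57.2 and 41.5 against 126 and 175). Another was Tek, the driver of Cre (127 and 268 against 382 and 318). The sum of the 12 markers was 7165 and 7160 against 9069 and 8379, with no marker at 0. Most of that sum was Pecam1 and Egfl7, and which cells these transcripts came from was not tested.

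**Figure D4:**
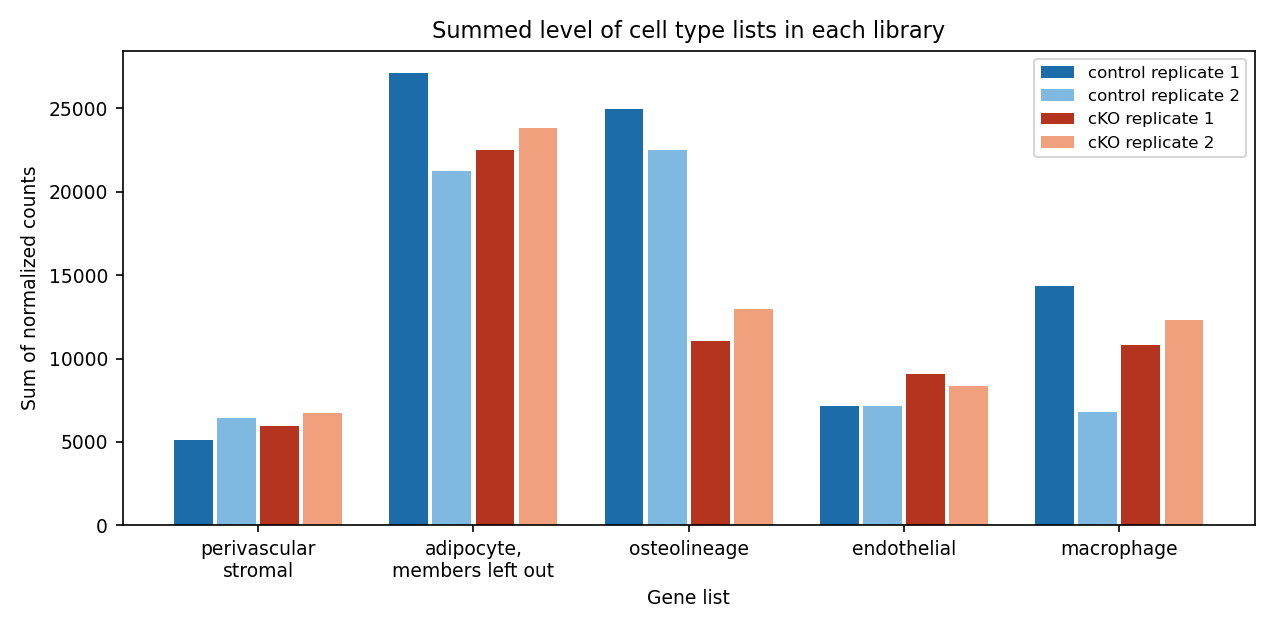
Summed normalized counts of 5 gene lists in each library, blue for control and red for cKO. The osteolineage bars of both controls (24984 and 22483) stand above both cKO bars (11052 and 12991). The endothelial bars of both controls (7165 and 7160) stand below both cKO bars (9069 and 8379). The macrophage, adipocyte and perivascular stromal bars of the genotypes overlap. Adipor1, Adipor2 and Cebpa made up most of the adipocyte sum, and Angpt1 and Vcam1 most of the perivascular stromal sum. Which cells these transcripts came from was not tested.

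The genes whose pattern over the 4 libraries was nearest to Lpl and to Cxcl12 were found by Euclidean distance between profiles on the log2(normalized count + 1) scale, each centred on its own mean, over 12881 other genes with a mean of at least 50. With 4 libraries this is a description and carries no test. Nearest to Lpl were Erbb3 (distance 0.07), Bst1, Tmem106a, Perm1 and Junb (0.18). Erbb3, a receptor tyrosine kinase, had 356 and 343 normalized counts in control and 133 and 168 in cKO, and Junb, an AP-1 subunit and immediate early gene, 2207 and 2344 against 913 and 1263. Nearest to Cxcl12 were Rragb (0.03), Gcnt2, Ccndbp1, Mtrf1l and Phf7, none of them a stromal marker in the lists used. Rragb, a GTPase of nutrient sensing, had 264 and 385 against 298 and 335. No other member of the 9 was among the nearest to either.

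**Figure D5:**
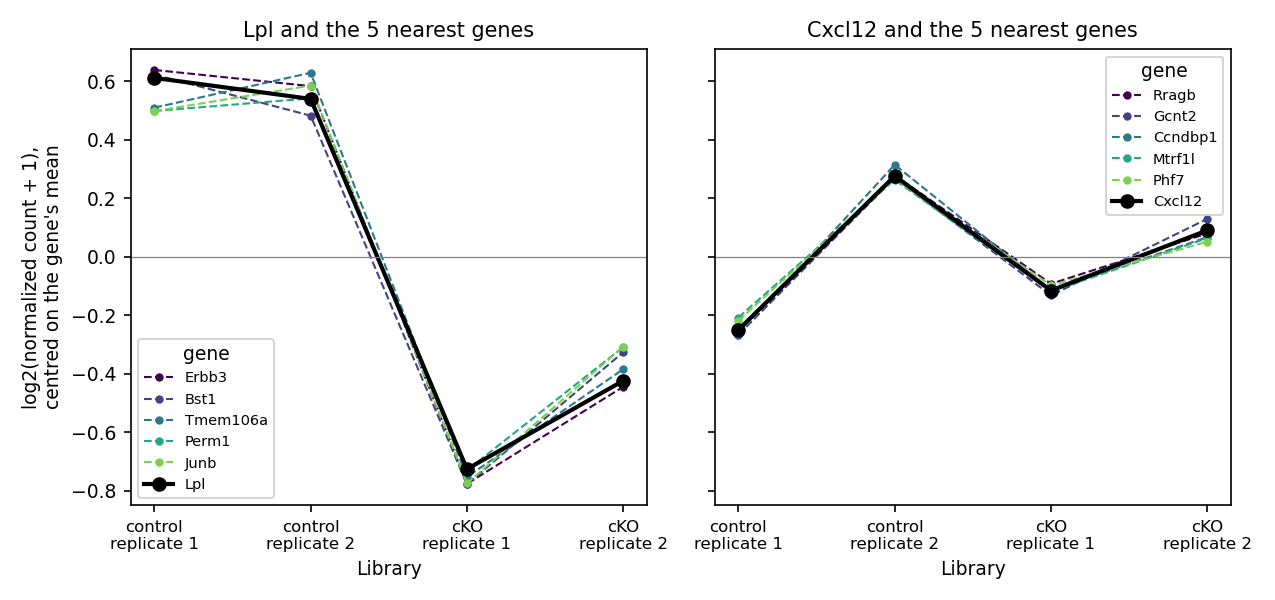
Centred log2(normalized count + 1) of Lpl (left) and Cxcl12 (right), black lines, and of the 5 nearest genes, dashed, in each of the 4 libraries. Lpl and its nearest genes are high in both controls and low in both cKO libraries, lowest in cKO replicate 1, whereas Cxcl12 and its nearest genes are highest in control replicate 2 and lowest in control replicate 1.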

How the data were processed

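RNA-seq values of 4 libraries (2 control, 2 cKO) were used. The authors deposited a normalized signal for every gene, its reads divided by a DESeq2 size factor of the library, per the file headers. The submitters' processing notes name STAR 2.7.9a, Trim Galore 0.6.7, SAMtools and featureCounts, with build mm39. Neither the annotation nor the strand setting is stated there. Control columns are headed as wild type and were matched by group and number. All values were whole multiples of 1 read (100% within 0.1 read), which gave back the reads. The smallest sum of a gene over the 4 libraries was 41 reads.

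limma 3.58.1 (R 4.3.3; empirical Bayes with a trend) was fitted on log2(normalized count + 1) over the 16598 genes whose mean reached 10, two-sided. Alternatives were pseudocounts of 0.5 and 10, other filters, TMM, quantile normalization, no trend, robust, a replicate block, each library left out, edgeR 4.0.16 and DESeq2 1.42.0 on recovered reads. The limma step was tested on simulated data with the same dispersion for every gene and no library apart from the rest. That test does not show how limma behaves with the spread of these libraries. Members and lists were chosen with earlier results of these data known. The text names every member, its ligand or receptor partners, defining markers and, for Cxcl12 and Lpl, the 5 nearest profiles. Whether libraries of a genotype came from separate mice is stated only as 2 mice per genotype, and p-values measure the spread between these libraries. Lengths came from GENCODE M21 (GRCm38) for 97.0% of genes.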

Additional observations from a re-analysis of the deposited data

How the results depend on the processing

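limma called 12 genes over all genes (5 higher, 7 lower). It called 2 higher with a mean of at least 50, with quantile normalization and without a trend, and 3 with the replicate block. DESeq2 called 112 (74 higher, 38 lower) and 1 member, Lpl, which was lower (log2 fold change -1.14). With each library left out the calls ran from 10 to 393, from 4 to 232 higher and from 5 to 161 lower; the highest numbers came without control replicate 1, where control replicate 2, the library that stands apart, was the only control. No member was called in those fits, in which the single library of a group is assumed to vary like the others. The cause of these shifts was not tested.

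Of the members, Lpl, Igfbp5, Lepr and Pdgfra kept their direction under all 15 alternatives. Their genotypes did not overlap, so leaving out 1 library could not turn the direction, and this adds no support. With each library left out the log2 fold change ran from -0.29 to 0.24 for Cxcl12, from -0.22 to 1.15 for Kitl, from -0.29 to 0.87 for Adipoq, from -0.24 to 0.65 for Pdgfrb and from -0.14 to 0.54 for Igfbp4. It was 0.00068 for Cxcl12 with quantile normalization. Among the partner and marker genes it ran from -0.14 to 0.70 for Angpt1, from -0.98 to 0.69 for Pdgfd, from -0.033 to 0.14 for Angptl4, from -0.65 to 0.50 for Foxc1, from -1.07 to 0.038 for Ebf3, from -0.43 to 0.76 for Vcam1, from -0.040 to 0.40 for Igf1r and from -0.29 to 0.0063 for Lmf1. Pdgfd also turned with edgeR (0.012) and DESeq2 (4.2e-05).

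The replicate number as a block changed no call among the members. The deviations of same-numbered libraries had a correlation over genes of -0.07. With 2 libraries per genotype this value is the same for either number, so it cannot show whether libraries share a batch or preparation. An exact permutation test of 2 against 2 libraries cannot go below 0.33. Pdgfra, Kitl and Adipoq rest on 27 to 152 reads per library. For Kitl and Adipoq the libraries of a genotype differed beyond counting error, so depth alone does not set their precision.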
